A study of Homo sapiens with 6 samples.

Results

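Kinesins are the motor proteins that walk along microtubules, and the genes described here are the 41 rows, of 20802 genes in each table, whose whole symbol was KIF followed by digits and at most 1 further letter, or KIFC followed by a digit. They were split by known role into 14 mitotic kinesins, 17 transport kinesins and 10 further kinesins, most of them known from cilia. KIF18B, a further mitotic kinesin, was not analysed here. RNA came from K562, an established human line derived from chronic myeloid leukemia in blast crisis. Cells carried the lentiviral vector pLKO.1-puro with either a scrambled shRNA (shSc, 3 libraries) or shNPM300, an shRNA against the NPM1 transcript (NPM KD, 3 libraries). Both kinds of cells were selected with puromycin. The comparison asks how the loss of NPM, a nucleolar histone chaperone, changes the transcriptome. Only 1 shRNA against NPM1 was sequenced, the methods call the selected cells clones, and nothing says that the triplicates were separate cultures, so each p-value measures only how far these libraries spread, which may be technical variation.

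Most kinesins walk toward the plus end of a microtubule and use ATP for each step, whereas the KIFC proteins, with their motor at the other end of the chain, walk toward the minus end, and a few family members take microtubules apart instead of walking. Mitotic kinesins build the spindle, move chromosomes and organise the midzone where the cell divides, and their transcripts are known to peak in G2 and mitosis in dividing cells. Transport kinesins carry vesicles, mitochondria and other cargo through the cytoplasm at all stages of the cycle. Transcription of many G2/M genes is known to depend on CCAAT boxes, bound by NF-Y, and on the cell cycle genes homology region (CHR), bound by the DREAM and MuvB complexes.

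Levels are given in RPM, the reads of a gene's amplicon scaled to 1000000 reads in each library. AmpliSeq amplifies a short stretch of each cDNA with gene-specific primers, so RPM can be compared between libraries for 1 gene. Because RPM carries the efficiency of each amplicon, it orders different genes only roughly. Depth was 8842344 to 18981902 reads per library, and 3 reads, the limit that a count of 0 allows, stood for 0.158 to 0.339 RPM. NPM1 was at 3856 and 2968 RPM in shSc replicates 1 and 2, at 3146 RPM in shSc replicate 3, and at 1302, 1168 and 655 RPM in NPM KD, so the libraries matched their labels (log2 fold change -1.76 ± 0.35, standard error, limma adjusted p = 0.158, range 4.7e-06 to 0.797 over the alternatives). The tests set the 3 NPM KD libraries against replicates 1 and 2 of shSc, the 5 libraries that the study retained. Replicate 3 of shSc stood apart: it had 16619 genes above 0, against 13893 to 14600 in the other libraries, and correlated with them at 0.839 to 0.879 on the log2 scale, against 0.922 to 0.972 among the others. Of 10 genes known from K562, 9 were above 10 RPM in each of the 5 tested libraries, LMO2 being the exception. B cell markers summed to at most 0.99 RPM in those 5 libraries, and MS4A1 was at 0 throughout. T cell markers summed to 48.4 and 51.5 RPM in shSc and to 18.3 to 88.8 RPM in NPM KD, nearly all of it CD3D. Fibroblast markers summed to 16.1 and 37.5 RPM against 13.9 to 54.8 RPM. Epithelial markers summed to 289 and 381 RPM against 218 to 441 RPM, from EPCAM and KRT19, with KRT5 at 0. Neuronal markers summed to 4.16 and 7.74 RPM against 7.27 to 11.7 RPM, nearly all of it TUBB3.

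Promoters of 4 mitotic kinesins are shown because the values below turn on these genes. Promoters were read from RefSeq on GRCh38.p14 as 250 bases before to 50 after the gene start, for 33 of the 41 genes. Both strands were searched for CCAAT and for the CHR as TTTGAA or TTCGAA, 2 words that differ by 1 base and that do not overlap CCAAT. Capitals mark the matches, and a match on the other strand reads ATTGG or TTCAAA. KIF4A (chrX:70289854-70290153) and KIF11 (chr10:92592880-92593179) carry CCAAT and TTTGAA, and KIF22 (chr16:29790501-29790800) carries CCAAT and TTCGAA, which reads the same on both strands. KIF2C (chr1:44739587-44739886) carries neither CCAAT nor these CHR words, but holds the CHR-like TTTAAA, left in lower case. All 4 lie on the plus strand.
KIF4A: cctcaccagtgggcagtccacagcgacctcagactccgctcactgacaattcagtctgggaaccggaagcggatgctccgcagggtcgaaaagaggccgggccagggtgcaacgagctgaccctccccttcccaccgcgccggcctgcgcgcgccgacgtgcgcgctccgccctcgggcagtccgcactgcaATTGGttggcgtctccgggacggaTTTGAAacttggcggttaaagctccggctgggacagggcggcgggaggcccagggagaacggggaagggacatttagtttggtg
KIF11: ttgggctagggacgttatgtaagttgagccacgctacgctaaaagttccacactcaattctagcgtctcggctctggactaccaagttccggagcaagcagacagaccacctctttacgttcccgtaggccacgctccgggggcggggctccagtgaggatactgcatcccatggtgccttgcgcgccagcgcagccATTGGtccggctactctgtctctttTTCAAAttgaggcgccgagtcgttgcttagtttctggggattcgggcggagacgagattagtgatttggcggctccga
KIF22: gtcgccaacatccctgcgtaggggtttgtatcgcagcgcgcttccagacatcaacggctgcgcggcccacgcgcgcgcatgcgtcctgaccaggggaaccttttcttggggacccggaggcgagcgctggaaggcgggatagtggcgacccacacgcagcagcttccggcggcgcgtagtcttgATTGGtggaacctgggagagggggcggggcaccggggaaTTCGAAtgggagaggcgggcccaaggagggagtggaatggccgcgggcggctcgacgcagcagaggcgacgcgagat
KIF2C: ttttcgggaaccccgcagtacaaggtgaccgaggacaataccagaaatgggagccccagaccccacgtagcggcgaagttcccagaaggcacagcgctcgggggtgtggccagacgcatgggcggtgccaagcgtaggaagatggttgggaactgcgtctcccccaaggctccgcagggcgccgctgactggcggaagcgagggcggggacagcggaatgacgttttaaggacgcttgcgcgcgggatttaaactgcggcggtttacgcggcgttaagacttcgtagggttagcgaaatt

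The CHR words were present in 10 of 14 mitotic kinesin promoters (71.4%) and in 1 of 12 transport kinesin promoters (8.33%), against 16.6% of all 27305 promoters of the table. CCAAT was present in 10 of 14 mitotic (71.4%) and 3 of 12 transport promoters (25.0%), against 35.7% of all. Both stood together in 9 mitotic kinesins (64.3%), KIF4A, KIF4B, KIF11, KIF14, KIF18A, KIF20B, KIF22, KIF23 and KIFC1, in KIF5B of the transport list and in KIF24 of the third list, against 6.58% of all promoters. The CHR began 24 bases after CCAAT in KIF4A, 25 bases after it in KIF11 and 39 bases after it in KIF22. The variant TTTAAA was found in 28.6% of mitotic kinesin promoters and in 12.3% of all. Of 32 matched promoters of other mitotic genes, 71.9% held the CHR words and 71.9% held CCAAT. These are matches of letters, not measured binding.

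No kinesin gene passed the test between NPM KD and shSc. Of the 41 genes, 28 reached 1 RPM in 2 or more of the 5 libraries and were tested by limma on log2(RPM + 0.5), a scale that understates the change of low genes, with p adjusted over all 11554 genes tested. The number called was 0 higher and 0 lower at an adjusted p of 0.05, where 0.0692% of all genes were called higher and 0.0606% lower (0.13% in either direction). With so few genes called, 0 calls among 28 says little about the kinesins, and NPM1 did not pass either (limma adjusted p = 0.158). On the recovered reads, edgeR called 0.0952% and DESeq2 1.64% of all genes, and each called 0 kinesins. An unadjusted p under 0.05 was found for 1 of the 28, KIF4A, where 7.14% of all genes reached it. The median log2 fold change was 0.12 over 11 tested mitotic kinesins, 0.09 over 13 transport kinesins and 0.01 over 4 further kinesins, against 0.01 over all genes. The log2 fold change of single genes was under 0.5 in size for 26 of the 28, and for 8773 of all 11554 genes tested. In bulk RNA, fewer cells in mitosis and less RNA per cell cannot be told apart.

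**Figure D1:**
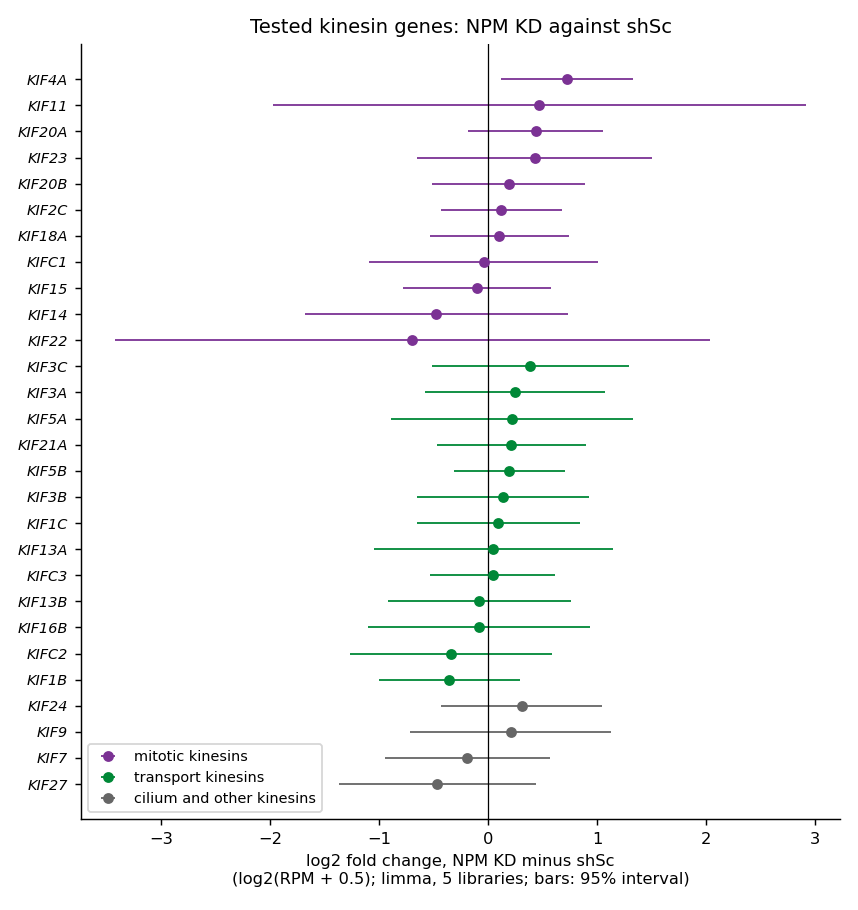
Log2 fold change of the 28 tested kinesin genes, NPM KD minus shSc, on the log2(RPM + 0.5) scale, by class; points are limma estimates over 5 libraries and bars are 95% intervals. The interval lies above 0 for KIF4A only (0.11 to 1.33), and those of KIF11 and KIF22 are the widest.

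KIF4A, a chromokinesin that binds PRC1 and limits the length of midzone microtubules, gave the clearest separation. It was at 52.6 and 40.8 RPM in shSc replicates 1 and 2, at 43.5 RPM in shSc replicate 3, and at 90.1, 65.3 and 76.5 RPM in NPM KD. Every NPM KD library was above every shSc library, the third included. Mean levels were 46.7 ± 8.37 RPM (SD, n = 2) for shSc against 77.3 ± 12.4 RPM (SD, n = 3) for NPM KD, a ratio of 1.66. The log2 fold change was 0.72 ± 0.26 (standard error), with a limma adjusted p of 0.612 that did not pass (0.029 to 0.9999 over the alternatives, the lowest with the replicate number as a block). Between libraries of the same number it was 0.77 for number 1 and 0.67 for number 2. Counting error was small beside these differences: the 95% exact binomial (Clopper-Pearson) interval of the share of reads ran from 48.9 to 56.5 RPM in shSc replicate 1 and from 84.8 to 95.7 RPM in NPM KD replicate 1. KIF4A lies on chrX:69509954-69640736 (GRCh37, plus strand) and overlaps PDZD11. The strand of counting is not given in the sources used here, so reads of the overlapping gene were not told apart. Its single-exon copy KIF4B, with 94.3% of transcript bases identical, was at 0.40 to 0.77 RPM in the 5 libraries. How reads that fit both copies were placed is not given in the sources used here.

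Among the other spindle motors, the 2 genes with the widest spread were KIF11 and KIF22, and neither separated the groups. KIF11, the motor that pushes the spindle poles apart and the target of drugs that arrest mitosis, was at 81.6 and 5.26 RPM in shSc replicates 1 and 2 and at 64.5, 13.6 and 29.4 RPM in NPM KD. Replicate 3 of shSc had 9.39 RPM. The libraries numbered 1 were the highest of each group, and the log2 fold change of 0.47 had a standard error of 1.05. It was 2.39 without shSc replicate 1, -1.45 without shSc replicate 2, -0.08 without NPM KD replicate 1 and 1.02 without NPM KD replicate 2, and -0.25 with edgeR and -0.27 with DESeq2. KIF22, a chromokinesin that pushes chromosome arms outward, was at 1.48 and 31.0 RPM in shSc replicates 1 and 2, at 14.5 RPM in shSc replicate 3, and at 1.18, 5.54 and 10.96 RPM in NPM KD. Here the libraries numbered 1 were the lowest of each group, and the log2 fold change of -0.70 had a standard error of 1.18. With these libraries on opposite sides, the KIF22 value was 1.30 without shSc replicate 2, 0.07 without NPM KD replicate 1, -1.31 without NPM KD replicate 3 and -2.69 without shSc replicate 1. Its limma adjusted p was 0.935 (0.020 to 0.9999 over the alternatives, the lowest with the replicate number as a block). Between libraries of the same number the KIF22 value was -0.24 for number 1 and -2.38 for number 2. KIF15, which can keep the spindle bipolar beside KIF11, was at 63.9 and 44.9 RPM in shSc, at 39.8 RPM in shSc replicate 3, and at 52.5, 39.5 and 59.6 RPM in NPM KD (log2 fold change -0.10), and the groups overlapped.

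The tested motors that align chromosomes, focus poles or take microtubules apart did not separate the groups. KIF2C, a depolymerase at the kinetochore, had the highest mean RPM of the mitotic list. It was at 111 and 131 RPM in shSc, 126 RPM in shSc replicate 3, and 115, 129 and 151 RPM in NPM KD. Its log2 fold change was 0.12, with a 95% interval from -0.43 to 0.67. KIF18A, which dampens chromosome movements at the metaphase plate, ranged from 30.2 to 43.4 RPM over the 5 libraries (log2 fold change 0.10). KIFC1, a minus-end motor that focuses spindle poles and clusters extra centrosomes, was at 35.6 and 76.5 RPM in shSc, 78.5 RPM in shSc replicate 3, and 36.4, 42.5 and 84.1 RPM in NPM KD. The 2 lowest values were again the libraries numbered 1, and the log2 fold change was -0.04 ± 0.45 (standard error).

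KIF2A, a depolymerase at spindle poles, was near the limit of detection. It had 3 and 1 reads in shSc replicates 1 and 2, 0 in shSc replicate 3, and 3, 6 and 11 reads in NPM KD. These stand for 0.21, 0.08 and 0 RPM and for 0.25, 0.51 and 0.58 RPM, which did not overlap, but the 95% exact binomial intervals of 0.044 to 0.62 RPM in shSc replicate 1 and 0.29 to 1.04 RPM in NPM KD replicate 3 did. KIF2A was under the filter and was not tested. It overlaps DIMT1 in the annotation.

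**Figure D2:**
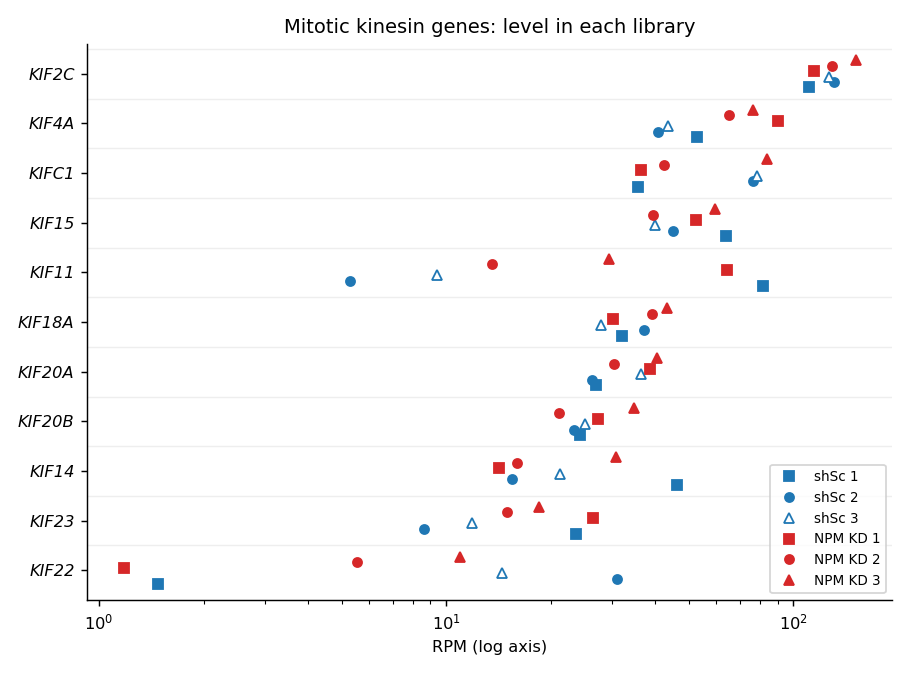
RPM of the 11 tested mitotic kinesins in each of the 6 libraries (log axis), by group, with shSc replicate 3 marked apart. KIF4A has all NPM KD points (65.3 to 90.1 RPM) above all shSc points (40.8 to 52.6 RPM), whereas KIF11 and KIF22 spread within each group.

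The motors of the midzone and of cytokinesis gave small differences. KIF20A, which brings the Aurora B complex to the midzone, was at 27.1 and 26.2 RPM in shSc replicates 1 and 2 and at 38.5, 30.4 and 40.4 RPM in NPM KD. The groups did not overlap, but shSc replicate 3 at 36.3 RPM lay among the NPM KD libraries. The log2 fold change was 0.43 ± 0.27 (standard error), with a limma adjusted p of 0.804. KIF23, the motor of the centralspindlin complex, was at 23.6 and 8.61 RPM in shSc, 11.9 RPM in shSc replicate 3, and 26.4, 14.9 and 18.5 RPM in NPM KD (log2 fold change 0.43). Its partner RACGAP1 was at 48.1 and 46.9 RPM in shSc, 47.6 RPM in shSc replicate 3, and 59.2, 60.6 and 60.0 RPM in NPM KD. RACGAP1, picked out here after its values were seen, had no overlap and a log2 fold change of 0.33 ± 0.23 (standard error), with a limma adjusted p of 0.840. KIF14, which recruits citron kinase for the last cut between daughter cells, was at 46.2 and 15.5 RPM in shSc, 21.3 RPM in shSc replicate 3, and 14.2, 15.9 and 30.8 RPM in NPM KD (log2 fold change -0.48). KIF20B, also needed for cytokinesis, ranged from 21.1 to 34.7 RPM over the 5 libraries (0.19 on the same scale).

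Among the transport kinesins, KIF5B had the highest RPM and was the only tested member whose groups did not overlap. KIF5B is the heavy chain of conventional kinesin outside neurons, carrying mitochondria, lysosomes and vesicles. It was at 299 and 257 RPM in shSc replicates 1 and 2, at 259 RPM in shSc replicate 3, and at 343, 303 and 308 RPM in NPM KD. The mean was 278 ± 30.2 RPM (SD, n = 2) against 318 ± 22.0 RPM (SD, n = 3), a ratio of 1.14, and the limma adjusted p was 0.914. The nearest values of the groups, 299 RPM in shSc replicate 1 and 303 RPM in NPM KD replicate 2, lie close, and no counting interval was computed for KIF5B. KIF5A, a heavy chain known from neurons, was at 30.5 and 60.3 RPM in shSc, 51.3 RPM in shSc replicate 3, and 31.8, 43.7 and 89.9 RPM in NPM KD (log2 fold change 0.22). The 5 neuronal markers summed to 4.16 and 7.74 RPM in shSc and to 7.27 to 11.7 RPM in NPM KD, with TUBB3 at 3.81 to 11.4 RPM, SYT1 at most 1.11 RPM, MAP2 at most 0.141 RPM and RBFOX3 and SNAP25 at 0 in the 5 libraries. KIF5A overlaps DCTN2, a dynactin subunit at 86.1 to 129 RPM in the 5 libraries. Their part in the KIF5A level was not tested. KIF5C, the third heavy chain, was at most 0.085 RPM in the 5 libraries and was not tested.

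The heterotrimeric transport motor built from KIF3A with KIF3B or KIF3C, known for carrying cargo into cilia and to the cell surface, was present in each library. KIF3A was at 11.2 and 7.89 RPM in shSc, 7.46 RPM in shSc replicate 3, and 14.8, 10.7 and 8.96 RPM in NPM KD (log2 fold change 0.24). KIF3C was at 11.2 and 7.89 RPM in shSc, 8.37 RPM in shSc replicate 3, and 12.7, 8.61 and 17.6 RPM in NPM KD (log2 fold change 0.39 ± 0.39, standard error), the largest positive value of the list. Groups overlapped for both. KIF3B ranged from 13.1 to 21.9 RPM, and KIFAP3, which links the motor to cargo, from 13.6 to 26.4 RPM over the 5 libraries.

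KIF1B, which carries mitochondria and, in mouse neurons, synaptic vesicle precursors, had the largest negative value of the transport list. It was at 37.6 and 48.0 RPM in shSc, 34.0 RPM in shSc replicate 3, and 31.1, 40.1 and 28.9 RPM in NPM KD (log2 fold change -0.36, 95% interval -1.004 to 0.29). KIF1C, a carrier of dense-core vesicles and integrins, was at 60.7 and 69.9 RPM in shSc, 62.4 RPM in shSc replicate 3, and 96.9, 71.0 and 48.6 RPM in NPM KD. Its log2 fold change of 0.09 is an average over NPM KD libraries that lay on both sides of shSc. KIFC3, a minus-end motor of epithelial junctions and Golgi, was at 112 and 128 RPM in shSc, 85.2 RPM in shSc replicate 3, and 148, 123 and 103 RPM in NPM KD (log2 fold change 0.04). KIFC2, its less well characterised relative, was at 16.4 and 8.85 RPM in shSc, 3.05 RPM in shSc replicate 3, and 12.2, 6.91 and 9.80 RPM in NPM KD (-0.34 on the log2 scale). KIF16B, an early endosome motor, was at 21.3 and 10.8 RPM in shSc, 11.2 RPM in shSc replicate 3, and 13.8, 9.81 and 21.6 RPM in NPM KD (-0.08 on the same scale). None of these separated the groups. The endosome and vesicle motors KIF13A and KIF13B, with log2 fold changes of 0.05 and -0.08, and KIF21A, a motor known from neurons at 0.21, also overlapped. KIF17, KIF1A and KIF21B, known mainly from neurons, were under the filter and were at most 0.49 RPM in the 5 libraries.

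**Figure D3:**
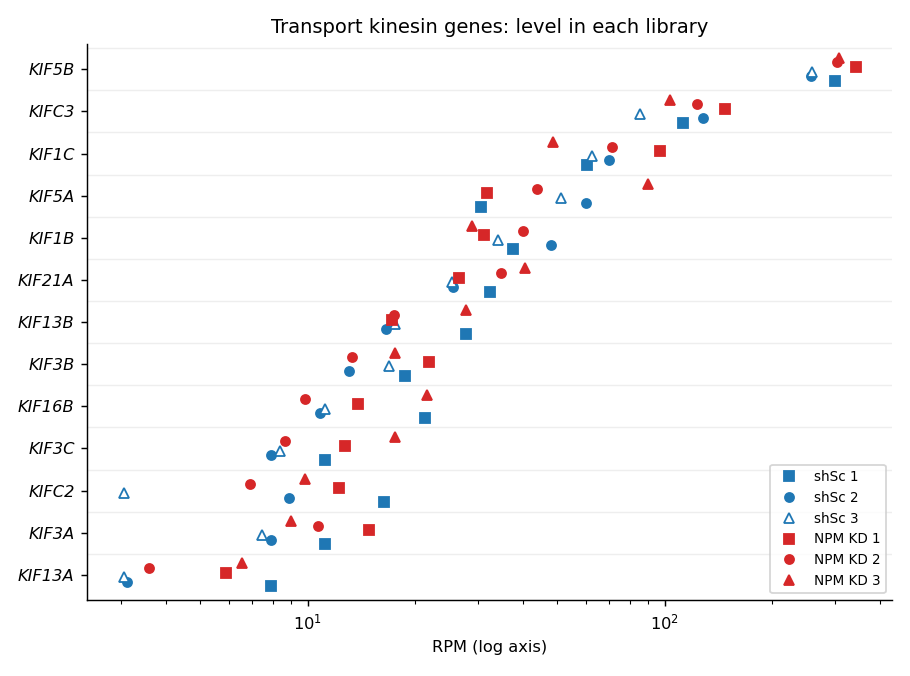
RPM of the 13 tested transport kinesins in each of the 6 libraries (log axis), by group, with shSc replicate 3 marked apart. KIF5B is the highest, with NPM KD at 303 to 343 RPM and shSc at 257 to 299 RPM, and the groups overlap for the other tested members.

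Of the 10 further kinesins, 4 were tested and 6 were under the filter. KIF27, whose mouse counterpart serves motile cilia, was the only tested kinesin with all NPM KD libraries below all shSc libraries. It was at 3.66 and 4.47 RPM in shSc replicates 1 and 2, 5.43 RPM in shSc replicate 3, and 1.94, 3.33 and 3.32 RPM in NPM KD (log2 fold change -0.47 ± 0.39, standard error, limma adjusted p = 0.875). These levels rest on 52, 56 and 48 reads in shSc and on 23, 39 and 63 reads in NPM KD. No counting interval was computed for KIF27, so its separation was not set against counting error. KIF24, which keeps centrioles from growing cilia, was at 9.66 and 12.4 RPM in shSc, 11.9 RPM in shSc replicate 3, and 11.6, 13.5 and 16.3 RPM in NPM KD (log2 fold change 0.31). KIF7, a regulator of Hedgehog signalling at the tip of the cilium, was at 7.75 and 6.54 RPM in shSc, 6.79 RPM in shSc replicate 3, and 6.73, 5.63 and 6.22 RPM in NPM KD (-0.19 on the log2 scale). KIF9, a motor of motile cilia and flagella in mouse, was at 4.72 and 6.06 RPM in shSc, 4.07 RPM in shSc replicate 3, and 6.23, 8.87 and 4.37 RPM in NPM KD (0.20 on the same scale). KIF12, KIF19, KIF25, KIF26A, KIF26B and KIF6 were at or under 0.171 RPM in each of the 5 libraries.

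Groups did not overlap in the 5 libraries for 4 of the 28 tested kinesins (14.3%), KIF4A, KIF20A and KIF5B higher and KIF27 lower in NPM KD, where 22.8% of all genes did so (12.3% higher and 10.4% lower). Over all 6 libraries KIF4A, KIF5B and KIF27 remained, 3 of 28, against 13.9% of all genes (9.55% higher and 4.35% lower). The count of 4 became 14 without shSc replicate 1 or without shSc replicate 2, where 56.2% and 57.0% of all genes did not overlap. It was 8 without NPM KD replicate 1, 7 without NPM KD replicate 2 and 6 without NPM KD replicate 3, against 30.3%, 28.0% and 45.0% of all genes.

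The libraries numbered 1 were set apart from the other 3 of the 5, since the labels give both groups the same numbers. For 12 of the 28 tested kinesins (42.9%) both libraries numbered 1 lay above or below the other 3, against 27.6% of all genes. This held for 6 of 11 mitotic kinesins, with KIF11 and KIF23 higher and KIF22, KIFC1, KIF2C and KIF18A lower in the libraries numbered 1. It held for 4 of 13 transport kinesins, with KIF3A, KIF3B and KIFC2 higher and KIF5A lower, and for KIF7 and KIF24 of the third list. Among 40 mitotic partner genes without kinesins it held for 20. A mean difference of at least 2 on the log2 scale was reached by KIF11 (2.75) and KIF22 (-3.15), against 1.19% of all genes. In RPM, shSc replicate 1 was 15.5 times shSc replicate 2 for KIF11, and shSc replicate 2 was 21.0 times shSc replicate 1 for KIF22. The 95% exact binomial intervals do not approach each other: 77 to 86.5 RPM against 4.07 to 6.70 RPM for KIF11, and 0.916 to 2.26 RPM against 28.0 to 34.3 RPM for KIF22. These intervals cover counting error only. Across genes, the GC content of the transcript had a Spearman correlation of -0.156 with the difference of the libraries numbered 1 over the 28 kinesins. By class it was -0.436 over 11 mitotic, -0.005 over 13 transport and 1.0 over only 4 further kinesins. Over the 10199 genes with a value it was 0.0793. These are descriptions over genes that share the same libraries, and the part of GC content was not tested.

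**Figure D4:**
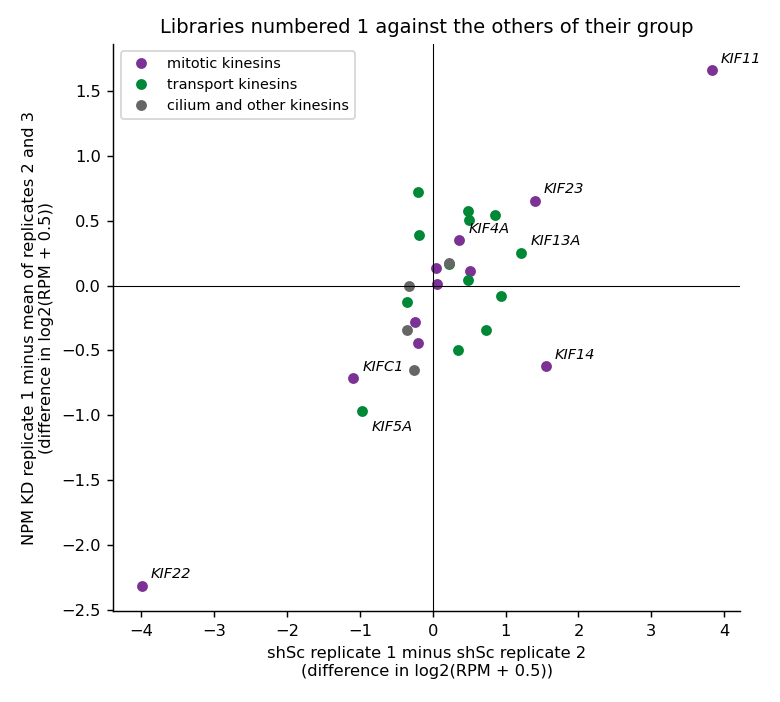
Difference of the libraries numbered 1 from the others in shSc (x axis, replicate 1 minus replicate 2) and in NPM KD (y axis, replicate 1 minus the mean of replicates 2 and 3), in log2(RPM + 0.5) units, for the 28 tested kinesins by class. KIF11 (3.83 and 1.66) and KIF22 (-3.99 and -2.31) lie far from the others at opposite corners.

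Lists of genes that work with the motors also gave 0 calls with limma, in the same fit across all genes (other fits, among them DESeq2 with 1 tubulin, made some calls in these lists). The limma fit called 0.13% of all genes tested, so 0 calls in lists this short says little about them. An unadjusted limma p under 0.05 was reached by 7.14% of all genes. Of 21 kinesin light chains, adaptors and relatives, 20 were tested, 0 passed in either direction, 0 had an unadjusted p under 0.05, and the median log2 fold change was -0.12. CENPE, the kinetochore kinesin whose symbol lies outside the naming rule, was at 20.9 and 8.69 RPM in shSc, 9.05 RPM in shSc replicate 3, and 7.99, 3.92 and 15.3 RPM in NPM KD (log2 fold change -0.74). The scaffold SPAG9, which links kinesin to cargo, was at 111 to 227 RPM over the 5 libraries.

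For dynein, which walks toward the minus end, dynactin and their regulators, 21 of 23 genes were tested. Of these, 0 passed in either direction, against 0.13% of all genes. An unadjusted limma p under 0.05 was found for 2, against 7.14% of all genes, and the median was 0.14. The largest value was DYNLRB1, a light chain, at 187 and 104 RPM in shSc, 120 RPM in shSc replicate 3, and 252, 244 and 190 RPM in NPM KD (log2 fold change 0.70). DCTN6, a dynactin subunit, was at 36.2 and 49.1 RPM in shSc, 43.4 RPM in shSc replicate 3, and 61.3, 69.3 and 68.6 RPM in NPM KD, with no overlap over all 6 libraries (0.65, limma adjusted p = 0.643). ACTR1B, an actin-related dynactin subunit and the other gene with an unadjusted p under 0.05, was lower, at 91.9 and 81.5 RPM in shSc, 45.5 RPM in shSc replicate 3, and 50.8, 51.7 and 67.9 RPM in NPM KD (log2 fold change -0.62, limma adjusted p = 0.670). Its groups did not overlap in the 5 libraries, but shSc replicate 3 lay below all NPM KD libraries. Highest in RPM were the light chains DYNLL1, at 278 to 799 RPM, and DYNLRB1.

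All 40 mitotic partner genes were tested and 0 passed in either direction, against 0.13% of all genes. An unadjusted limma p under 0.05 was found for 0, against 7.14% of all genes, and the median was 0.15. PTTG1, the securin that holds back separase, was at 42.0 and 42.8 RPM in shSc, 21.5 RPM in shSc replicate 3, and 13.97, 7.42 and 44.1 RPM in NPM KD (log2 fold change -1.32). CKAP2, a spindle protein, was at 11.1 and 46.4 RPM in shSc, 38.3 RPM in shSc replicate 3, and 35.4, 62.5 and 51.5 RPM in NPM KD (1.07 on the same scale). Groups overlapped for both. Highest in RPM were the microtubule polymerase CKAP5, at 299 to 494 RPM, and the cyclin CCNB2, at 282 to 356 RPM.

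Of 21 tubulin genes, 15 were tested and 0 passed in either direction with limma, against 0.13% of all genes. An unadjusted limma p under 0.05 was found for 2, against 7.14% of all genes, and the median was 0.09. TUBA3C was at 2.33 and 0.957 RPM in shSc replicates 1 and 2 and at 8.84, 8.27 and 6.16 RPM in NPM KD (log2 fold change 2.01, limma adjusted p = 0.177), but shSc replicate 3 at 7.12 RPM lay among the latter. TUBA3C has close copies, TUBA3D and TUBA3E, both listed at 0 RPM, so its reads are uncertain. TUBB2B was at 26.8 and 50.9 RPM in shSc replicates 1 and 2, 13.9 RPM in shSc replicate 3, and 8.41, 10.8 and 25.8 RPM in NPM KD (-1.44). TUBB, the tubulin with the highest mean RPM, was at 727 RPM in shSc replicate 1 and at 2161 to 2615 RPM in the other 4 tested libraries, and TUBA1C at 716 RPM and 1318 to 3290 RPM.

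In shSc replicate 3, 5 kinesin genes that were at or near 0 elsewhere gave reads. KIF2B, a depolymerase related to KIF2C, was at 69.9 RPM there (618 reads) and at 0 reads in the 5 other libraries, a limit of 3 reads in each. KIF4B was at 42.5 RPM (376 reads), against 5 to 12 reads in the others. KIF19, a depolymerase of cilia in mouse, was at 33.4 RPM, KIF12, a kinesin known from kidney, at 9.27 RPM and KIF1A, the carrier of synaptic vesicle precursors in mouse neurons, at 1.92 RPM, against at most 0.168, 0.08 and 0.105 RPM elsewhere. Of all genes at or under 3 reads in each of the 5 libraries, 25.8% were above 3 reads in shSc replicate 3, among them 4 of 9 kinesins (44.4%; KIF4B exceeded 3 reads elsewhere and is not counted). For genes with 1 exon the share was 90.8% (516 of 568), and for genes with more exons it was 19.4% (1044 of 5369). KIF2B and KIF4B have 1 exon, whereas KIF12, KIF19 and KIF1A have 19, 20 and 49. The RNA had been treated with DNaseI before the libraries were made, according to the methods, and the part of genomic DNA in these reads was not tested. B cell markers summed to 81.5 RPM in shSc replicate 3. No kinesin test used this library except where stated.

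**Figure D5:**
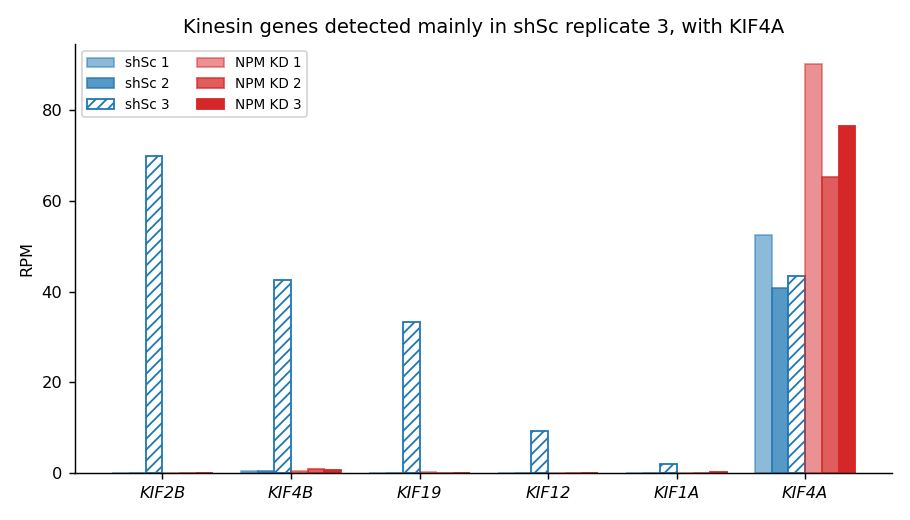
RPM (y axis, starting at 0) of 5 kinesin genes detected mainly in shSc replicate 3, with KIF4A for comparison; each bar is 1 library, grouped by gene. KIF2B, KIF4B, KIF19, KIF12 and KIF1A exceed 1 RPM in shSc replicate 3 alone, at 69.9, 42.5, 33.4, 9.27 and 1.92 RPM, whereas KIF4A is at 40.8 RPM or more in each library.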

How the data were processed

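The authors made AmpliSeq libraries from DNaseI-treated RNA, sequenced them on an Ion Proton and, per the methods and the submitters' processing notes, aligned reads to hg19 with Torrent Suite 4.4. They deposited RPM per gene as the AmpliSeqRNA plugin gives it; its version is not given in the sources used here. Within 0.1 read, 100% of the RPM values were whole multiples of 1 read. The 10 spike-in rows held 0 reads and were left out. Chi-square per gene between library pairs was 43.6 to 240.8, so none was a copy. Which 2 shSc libraries the study retained was read from its own group means.

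The 11554 genes that reached 1 RPM in 2 or more of 5 libraries were tested two-sided with limma 3.58.1 (R 4.3.3) on log2(RPM + 0.5), with variance trend and no covariate, and Benjamini-Hochberg adjustment at 0.05. edgeR 4.0.16 (11 genes called) and DESeq2 1.42.0 (190 called) on recovered reads were alternatives, with pseudocounts of 0.1 and 1, no filter or 5 RPM, TMM, quantile normalization, no trend, other sets of libraries, replicate blocks and each library left out. Exact intervals on read counts are at 95% and cover counting error only. The limma fit was checked on simulated counts with known changes. Those counts had independent noise and no effect of the replicate number, so the check does not show how small a change these libraries could reveal. Coordinates are from GENCODE 44 on GRCh37, promoters from RefSeq.

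Members and lists were chosen with earlier results of these data known. Named with values in every library are kinesins past either p threshold, the 3 tested mitotic and 3 transport kinesins with the largest value in each direction, the 4 of each with the highest RPM, the 3 such further kinesins, KIF2A, KIF2B, KIF4A with KIF4B and those detected mainly in shSc replicate 3, and in each partner list the 2 with the largest values and the 2 highest in RPM. Genes named outside this rule were chosen after their values were seen. The values of 2 genes that this rule names are not reported here.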

Additional observations from a re-analysis of the deposited data

Results flagged for a closer look

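Replicate 3 of shSc, which no comparison of the 5 libraries used, held signal for 5 kinesin genes above the level of every other library. KIF2B was at 69.891 RPM and KIF4B at 42.523 RPM, both genes of 1 exon. KIF19 was at 33.362 RPM, KIF12 at 9.274 RPM and KIF1A at 1.923 RPM, all with more exons. The other 5 libraries were at or under 0.767 RPM for each of the 5 genes.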

How the results depend on the processing

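Counts of called kinesins stayed at 0 in both directions under each alternative with a test except the replicate number as a block over 5 libraries, in which shSc replicates 1 and 2 are each set against the NPM KD library of their number. That block called 1698 genes (14.7%), among them KIF4A higher (log2 fold change 0.72, limma adjusted p = 0.029) and KIF22 lower (-1.31, 0.020), 1 mitotic kinesin in each direction. The KIF22 value averages -0.24 between the libraries numbered 1 and -2.38 between those numbered 2, which are far apart. NPM KD replicate 3 has no shSc library of its number there, and limma takes part of the spread behind these p-values from other genes. The block also called 4 genes of the adaptor list lower, and 2 genes of the dynein and dynactin list higher and 1 lower. It called 1 mitotic partner higher and 4 lower, and 1 tubulin higher and 2 lower. Deviations from the means of all 3 libraries of a group correlated at 0.43, 0.31 and 0.04 between same-numbered libraries 1, 2 and 3. The main test, which called 15 genes, did not treat the libraries as pairs, since the study's methods state no covariate. The pair at 0.04 holds shSc replicate 3, which the 5-library test leaves out and which entered these shSc means. The correlations therefore do not settle whether the pairs numbered 1 and 2 should be matched. Libraries numbered 1 and 2 correlated best with their own number, those numbered 3 did not, and the numbers' origin is not given, so whether they mark a shared preparation was not settled. The block over all 6 libraries called 0 kinesins. DESeq2 called 1 tubulin higher. The count of kinesins without overlap was 6 to 14 with 1 library left out (28.0% to 57.0% of all genes), 13 with both libraries numbered 1 left out (37.8%) and 10 with shSc replicate 3 in place of replicate 1 (31.6%), where fewer or other libraries are compared.

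The median log2 fold change of the further kinesins was 0.20 with a filter of 5 RPM, which tests fewer genes. That of mitotic partners was 0.0243 to 0.198 with 1 library left out, 0.0677 with the block, 0.0665 in libraries numbered 1 alone and 0.0565 in those numbered 2. That of tubulins was -0.15 to 0.66 with 1 library left out, 0.34 and -0.14 with shSc replicate 3 in place of replicate 2 and of replicate 1, and 0.56 and -0.14 in libraries numbered 1 and 2 alone. The cause was not tested. Over the 23 alternatives the median ran from 0.01 to 0.21 for mitotic and from -0.03 to 0.33 for transport kinesins. Of 483 values of named genes under alternatives, 46 changed sign with no call in either fit, and 8 of 20 tested named kinesins kept their sign throughout. Sets of shSc replicate 3 in place of another shSc library, and the GC content, were chosen after seeing the data. Depth limits KIF2A and the other genes at a few reads.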
